A study of Homo sapiens with 18 samples.

Results

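The regions described here were called open in no vehicle-treated library of PC9 cells and in every library made after erlotinib, both at 12 h and at 8 days. PC9 is an established lung adenocarcinoma line whose growth depends on mutant EGFR, and erlotinib inhibits the EGFR kinase. Peaks of all 18 libraries were merged into 79483 regions, and a library held a region if any of its peaks lay in it. Members were the 320 regions (0.403% of all) held by all 9 erlotinib libraries and by none of the 9 vehicle libraries. These calls chose the members, so the separation itself is a description and carries no test. The opposite pattern, regions held by all 9 vehicle libraries and no erlotinib library, was met by 26 regions (0.0327%); in lists cut to equal size the counts were 138 and 118.

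The assay was ATAC-seq, which reads out accessible DNA as the places where a transposase could cut and attach adapters. The 6 groups of 3 libraries each were PC9 cells in DMSO with no sorting named and no time given, drug-tolerant persisters (DTP) that survived 8 days in 1 µM erlotinib, and cells exposed for 12 h to DMSO or to 1 µM erlotinib before sorting. Cells were sorted by Aldefluor, a stain that reports aldehyde dehydrogenase (ALDH) activity, into ALDH-high and ALDH-low fractions. All groups came from this 1 line, and the labels distinguish the libraries of a group only by the letters a, b and c. Whether these came from separate cultures is not stated, so every p-value reflects library-to-library spread alone, and that spread may be technical. The 12 h and 8-day libraries differed in sorting as well as in time, and these cannot be told apart. Lists held between 26228 peaks (ALDH-low, DMSO, library b) and 45244 peaks (DTP, library c). Sorted DMSO lists held at most 32824 peaks and erlotinib lists at least 32586, so these ranges overlapped slightly. Read depth behind the lists is unknown, and a region that was not called was not shown to be closed. The identity of the cells was not checked against lineage markers, since gene positions of hg19 were not used here.

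Drug-tolerant persisters are a small surviving subpopulation that cycles slowly or not at all and regains drug sensitivity after the drug is withdrawn, and their survival has been tied to altered chromatin. In mammalian cells most start sites of widely used genes stay accessible across conditions, whereas distal regulatory elements open and close with the transcription factors that bind them. Such factors include those downstream of EGFR and the MAP kinase pathway, whose activity falls when the kinase is inhibited. A region that opens within hours may therefore be lost again or kept as the cells enter the persister state.

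A region counted as gained at 12 h in both fractions when all 6 erlotinib and none of the 6 sorted DMSO libraries held it, and 32% of such regions met the full rule. In ALDH-low cells 3607 regions (4.54% of all) were held by all 3 erlotinib and no DMSO library, and in ALDH-high cells 2567 (3.23%). In both fractions together, 1000 regions (1.26% of all) were gained. None of the 3 PC9 libraries held 677 of them. Of these 677, 320 were in all 3 DTP libraries and are the members, 201 were in 1 or 2 DTP libraries and 156 in none. A further 210 of the 1000 were in all 3 DTP libraries but also in at least 1 PC9 library. Seen from the persisters, 4446 regions (5.59% of all) were held by all 3 DTP and no PC9 library, and 3731 of these were in no sorted DMSO library. Of the 3731, 1861 (49.9%) were in none of the 6 erlotinib 12 h libraries and 320 (8.58%) were in all 6. Between these ends the counts fell from 531 regions in 1 library to 216 in 5. Of the 3731, 10 were held by all 3 ALDH-low and no ALDH-high erlotinib library, and 39 showed the reverse.

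**Figure D1:**
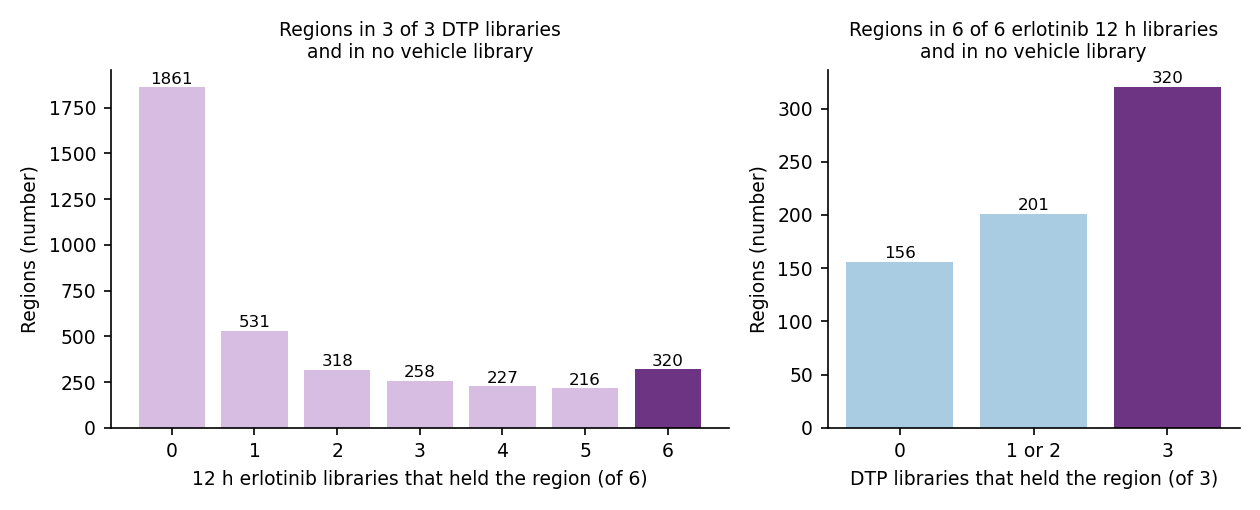
Numbers of regions by how many libraries held them. Left, the 3731 regions in all 3 DTP and no vehicle libraries, by the number of erlotinib 12 h libraries (0 to 6) that also held them; the bar at 6 is the 320 members, above the 216 at 5. Right, the 677 regions in all 6 erlotinib 12 h and no vehicle libraries, by the number of DTP libraries; 320 were in all 3.

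Whether regions that open at 12 h are also open in persisters can be tested in libraries that did not choose the regions. The 1000 regions gained at 12 h were chosen in sorted cells alone. They were called in 64.8%, 69.5% and 68.4% of cases in DTP libraries a, b and c, and in 17.5%, 19.2% and 19.9% in PC9 libraries a, b and c. All 3 DTP libraries lay above all 3 PC9 libraries. The means were 67.6% ± 2.46 and 18.9% ± 1.23 (SD, n = 3 libraries each), a difference of 48.7 points (exact two-sided permutation test, p = 0.1, the smallest that 3 against 3 libraries allow; adjusted over 3 tests, 0.3). Over all 79483 regions the same libraries called nearly equal shares, between 52.6% and 56.3% in DTP and between 48.9% and 51.9% in PC9. When each list was cut to its 26225 highest-scoring peaks, which gives all lists the same length, the difference was 44.4 points.

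Regions chosen in 1 ALDH fraction were also looked up in the other. This pair of tests was added after the data were seen. The 607 regions held by all ALDH-low erlotinib and DTP libraries and by no ALDH-low DMSO or PC9 library were examined in ALDH-high cells. ALDH-high erlotinib libraries a, b and c called 90.1%, 78.4% and 90.4% of them, and ALDH-high DMSO libraries called 9.39%, 9.72% and 10.5%. Library b of the erlotinib group was the lowest of its group and still far above every DMSO library. The difference of 76.4 points had an exact two-sided permutation p of 0.1, the smallest possible (adjusted over all 5 tests, 0.167). In the reverse direction, 593 regions chosen in ALDH-high, DTP and PC9 libraries were called in 84.3%, 78.4% and 71.3% of cases by ALDH-low erlotinib libraries a, b and c. ALDH-low DMSO libraries called 3.71%, 2.70% and 4.22% of them, so the groups did not overlap. This difference was 74.5 points (exact two-sided permutation p = 0.1; adjusted, 0.167). Over all regions, erlotinib libraries called between 40.6% and 50.8% and sorted DMSO libraries between 32.7% and 40.9%, so longer lists moved with the treatment. In lists of equal size the differences were 77.6 and 69.6 points. The labels do not say whether both fractions of a treatment were sorted from 1 culture.

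**Figure D2:**
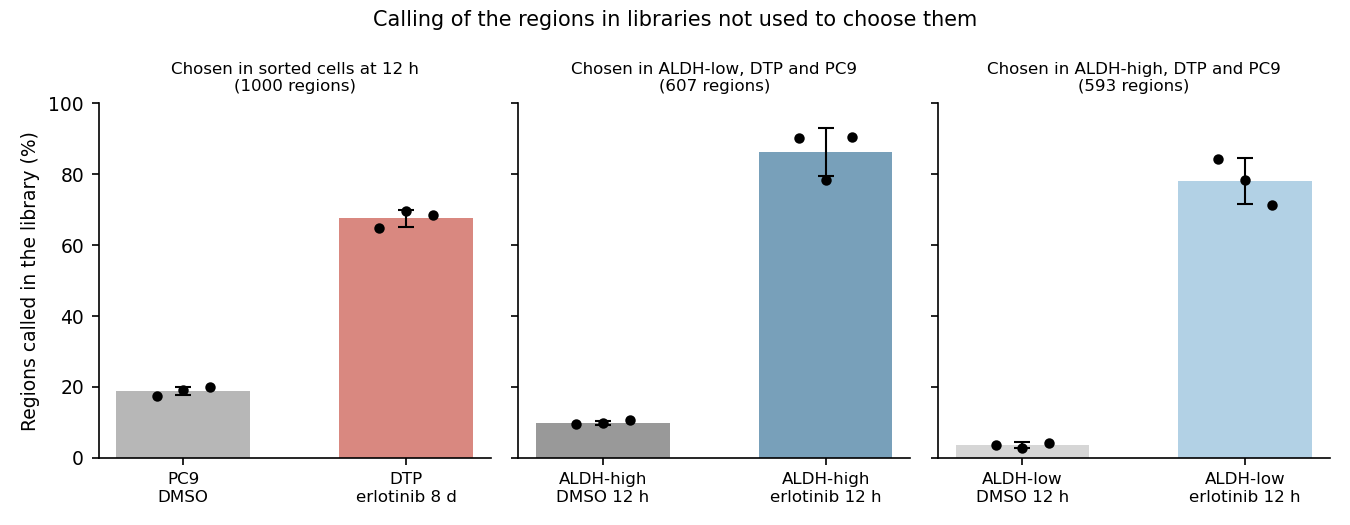
Percent of regions called in libraries that took no part in choosing them. Bars are means, error bars SD and points the 3 libraries of a group; the panels show 1000 regions chosen in sorted cells at 12 h, 607 chosen without ALDH-high libraries and 593 chosen without ALDH-low libraries, and in each panel every erlotinib library lies above every DMSO library.

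Members were peaks of middling rank. For each library, a peak's deposited score was turned into its percentile within that library's list, the percent of the list's peaks with an equal or lower score, and percentiles are compared here only as descriptions because lists differ in length. The median percentile of the 320 members was 56.6, 51.1 and 42.3 in ALDH-low erlotinib libraries a, b and c. It was 56.6, 44.6 and 54.1 in ALDH-high erlotinib libraries a, b and c. In DTP libraries a, b and c it was 46.0, 50.2 and 49.8. The lowest medians at 12 h were thus those of ALDH-low library c and ALDH-high library b, whose lists were the shortest of the erlotinib groups. Regions held by all 18 libraries, of which there were 14070, had medians between 76.7 and 81.9 in the same 9 libraries. Regions held by DTP alone (1861, 2.34% of all) ranked lower than members in DTP libraries, with medians of 34.2, 37.2 and 37.8. Regions held at 12 h alone (156, 0.196% of all) had medians between 35.6 and 50.3 in the 12 h libraries, below those of the members in each. These sets were chosen from the same lists, so their ranks are not a test.

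**Figure D3:**
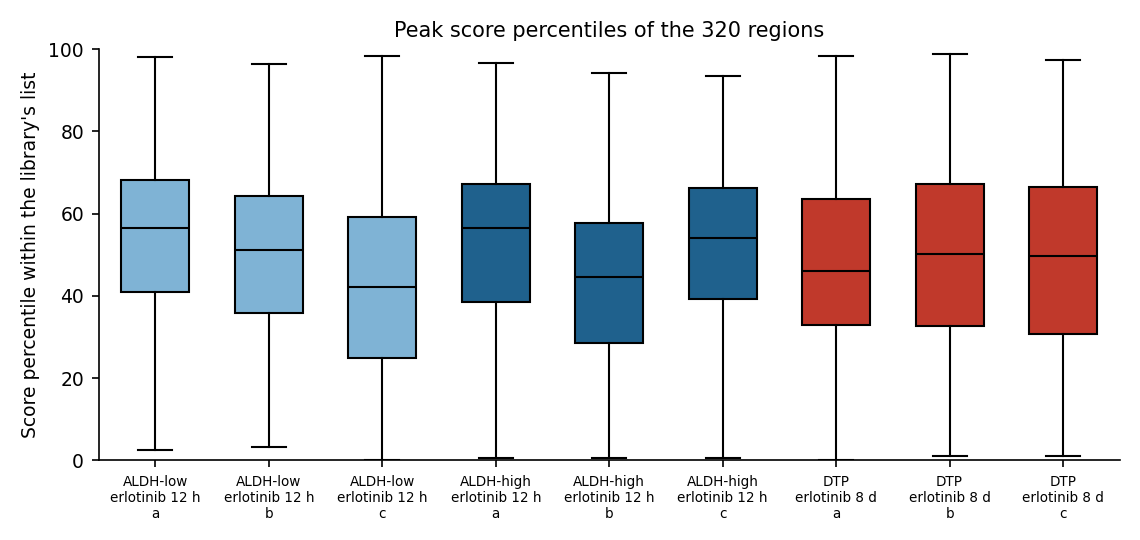
Score percentiles of the 320 members within each of the 9 erlotinib lists. Boxes span the quartiles with the median as a line, and whiskers reach the lowest and highest member; medians lie between 42.3 and 56.6.

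Many members lay near the calling floor in at least 1 library. The percentile in a member's weakest library had a median of 18.3 over the 320, was below 10 for 88 of them (27.5%) and above 50 for 17 (5.31%). The lowest deposited score in any list was 70. In 87 members the weakest peak scored under 80, and in 215 under 100. Just outside the rule lay 314 regions held by 8 of the 9 erlotinib libraries and no vehicle library, whose weakest peak had a median percentile of 8.86. The missing library was most often ALDH-low c or ALDH-high b, with 66 regions each, and least often ALDH-low a, with 14. A further 205 regions were held by all 9 erlotinib libraries and by 1 vehicle library, where the vehicle peak had a median percentile of 12.6 and scored under 80 in 84 regions. PC9 libraries a, b and c held 30, 28 and 36 of these 205, ALDH-high DMSO libraries 21, 30 and 27, and ALDH-low DMSO libraries 13, 7 and 13. Weak peaks thus lay on both sides of the rule.

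Which regions were members depended on the score floor and on list length. With peaks scoring at least 100, 272 regions met the rule, and 105 of the 320 members were among them. In lists of equal size the number was 138, and 70 of the 320 (21.9%) were kept. Members made up 92.5% of members and reverse-pattern regions together with the lists unchanged, and 53.9% after cutting to 1 length, when 118 regions showed the reverse pattern. Requiring peaks to cover at least 50% of a region left 283 regions and kept 218 members. All 3 requirements, each applied alone, were met by 56 members (17.5%), and 79 met none of them. Members kept in equal-size lists had a median weakest percentile of 43.6, and those not kept 14.1, which restates the cut, since it goes by score.

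The highest-ranking members, named by hg19 position counted from 1, were those with the highest percentile in their weakest library. All of the 15 highest remained at a score of at least 100 and in lists of equal size, and 13 of them also with 50% coverage. Their choice by rank made survival of the score and length cuts near certain, since both remove low-scoring peaks. They lay on 12 chromosomes, and their weakest percentiles ran from 52.0 to 82.7. The highest was chr11:86710673-86711928. Its percentiles were 94.9, 92.6 and 82.7 in ALDH-low, 96.5, 94.3 and 92.3 in ALDH-high and 95.6, 98.0 and 96.7 in DTP libraries. The deposited scores behind them ranged from 343 in ALDH-low library c to 695 in ALDH-high library a, and from 368 to 459 in DTP. It was the only member above the 80th percentile in all 9 libraries, and the nearest vehicle peak lay 35641 bp away. All 9 of its peaks shared a stretch of 819 bp.

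The next in rank was chr3:97776316-97777974. Percentiles there were 85.5, 90.2 and 94.2 in ALDH-low, 84.8, 79.3 and 85.0 in ALDH-high and 79.4, 88.5 and 85.8 in DTP libraries. Its 9 peaks shared 1338 bp, the longest common stretch of any member. The region at chr1:235798853-235800122 had 77.7, 86.8 and 76.7 in ALDH-low, 95.6, 71.4 and 69.9 in ALDH-high and 83.7, 86.7 and 81.8 in DTP libraries. Here ALDH-high library a stood above all other libraries and ALDH-high libraries b and c below all others. At chr13:33726083-33727822 the 9 values lay between 67.6 and 84.8, with both ends in ALDH-high libraries. At chr1:17913949-17915552 they lay between 62.6 and 87.0, with the lowest in ALDH-low and the highest in DTP. The region at chr10:73627368-73628658 was at 77.2 or higher in all 6 libraries at 12 h and at 60.6, 66.9 and 83.1 in DTP, so the groups overlapped.

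**Figure D4:**
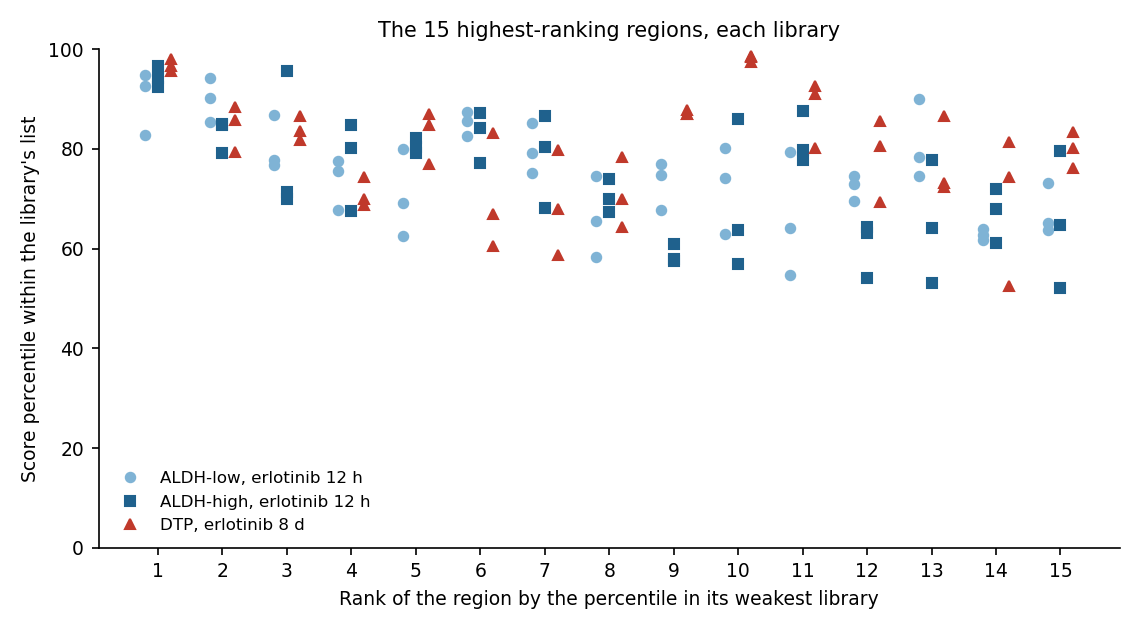
Score percentiles of the 15 highest-ranking members in each of the 9 erlotinib libraries; ranks on the x axis run from chr11 (rank 1) to chr5 (rank 15), and each point is 1 library. At rank 10, on chromosome 1, the 3 DTP libraries lie between 97.5 and 98.7 and all 6 libraries at 12 h at or below 85.9.

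In 2 of the 15, every DTP library ranked the region above every 12 h library. At chr1:47269424-47271375 the DTP percentiles were 98.5, 98.7 and 97.5, against 80.3, 74.2 and 62.9 in ALDH-low and 85.9, 56.9 and 63.8 in ALDH-high libraries. At chr9:80781927-80783006 they were 86.9, 87.9 and 87.0 in DTP, 74.7, 67.7 and 77.1 in ALDH-low and 58.0, 60.9 and 57.6 in ALDH-high libraries. That region also separated the fractions at 12 h, with every ALDH-low library above every ALDH-high library. The other members of the 15 overlapped between 12 h and 8 days. Those not yet named were chrX:129231208-129232738, chr14:91630683-91631805, chr9:101448772-101450273, chr15:64237361-64238706, chr2:173973566-173974936, chr18:42938911-42940232 and chr5:172115372-172116710, with weakest percentiles between 52.0 and 58.6.

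The order of members by rank was only weakly shared between 12 h and persisters. Across the 320 members, the median percentile at 12 h and that in DTP had a Spearman correlation of 0.169. Between the medians of ALDH-low and ALDH-high cells at 12 h it was 0.605. Single DTP libraries correlated with each other at 0.630 to 0.656, and single 12 h libraries with single DTP libraries at 0.0113 to 0.188. Among the 14070 regions held by all 18 libraries the corresponding median correlations were 0.723 between 12 h and DTP and 0.868 between fractions. The spread of ranks in those regions was not compared with that of members. Regions of 1 library share its depth, and no p-value is given for these correlations. The median difference between the 12 h and DTP percentiles was −0.904 points (quartiles −14.1 and 18.5), with members shifted in both directions. In 38 members all 6 libraries at 12 h ranked the region above all 3 DTP libraries, and in 44 the reverse held. Together these were 25.6% of the members, beside 21.6% of the regions held by all 18 libraries. The medians differed by more than 30 points in 71 members, 40 higher at 12 h and 31 higher in DTP. The same count was not made for other regions, so it does not set members apart.

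**Figure D5:**
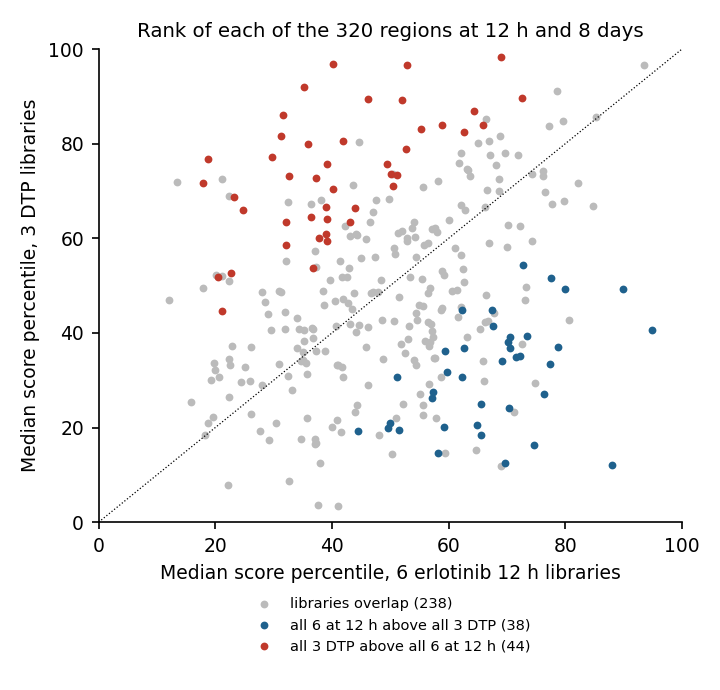
Median score percentile of each of the 320 members in the 6 erlotinib 12 h libraries (x axis) and the 3 DTP libraries (y axis). Blue points (38) are members with all 12 h libraries above all DTP libraries, red points (44) the reverse, and grey points overlap; the cloud follows the diagonal only loosely.

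Members called strongly at 12 h and weakly in DTP were led by chr1:101723022-101724318. It had 90.3, 92.5 and 89.9 in ALDH-low and 86.2, 84.0 and 70.2 in ALDH-high libraries, and 0.0533, 20.7 and 12.0 in DTP. DTP library a called it at the very bottom of its list, so its membership rests on that peak. At chr2:43695580-43697527 the 6 values at 12 h lay between 67.4 and 81.8 and those in DTP were 2.01, 22.3 and 16.3. A vehicle peak ended only 2 bp from this region, the closest of any member. The region at chr1:156661070-156664838 had 63.9 to 73.0 at 12 h and 13.2, 12.4 and 11.0 in DTP. At chr16:75078471-75079695 the values were 22.2 to 86.8 at 12 h and 11.9, 25 and 3.79 in DTP, which overlapped through ALDH-high library b. The region at chr3:194232900-194234505 was the only member above the 90th percentile in all 6 libraries at 12 h (92.9 to 98.4), and stood at 20.1, 40.6 and 58.3 in DTP. None of these 5, chosen for ranks lower in DTP, remained in lists of equal size, which drop low-ranking peaks.

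The opposite group was weak at 12 h and strong in DTP. At chr14:57142400-57143386 the values at 12 h were 65.5, 14.3 and 6.12 in ALDH-low and 12.4, 26.6 and 0.510 in ALDH-high libraries, against 57.6, 73.3 and 71.9 in DTP. The groups overlapped there through ALDH-low library a. At chr19:56621534-56622746 they were 14.1 to 42.9 at 12 h and 71.5, 76.8 and 85.9 in DTP. At chr2:180575238-180576937 the range at 12 h was 14.5 to 52.5, and DTP stood at 92.0, 91.9 and 95.8. This region was far from vehicle peaks, with 100270 bp to the nearest. At chr6:114465665-114467222 the range was 29.4 to 71.1 at 12 h, with 97.0, 95.8 and 97.2 in DTP. At chr20:18243998-18245104 it was 8.5 to 61.5 at 12 h, with 86.6, 86.1 and 72.2 in DTP. Only the region on chromosome 6 remained at a score of at least 100, and none of the 5 remained in lists of equal size. Both cuts drop low-ranking peaks, and these regions were chosen for ranks lower at 12 h. In all, 5 members were above the 90th percentile in all 3 DTP libraries: those already named on chromosomes 11, 1 (47269424), 2 (180575238) and 6, and chr17:18849448-18850581, which was chosen after its values were seen.

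Between ALDH fractions, equal numbers of members separated in each direction. In 31 members every ALDH-high erlotinib library ranked the region above every ALDH-low erlotinib library, and in 31 the reverse held, together 19.4% of the members beside 16.05% of the regions held by all 18 libraries. The 3 libraries of a group spread over a median of 21.6 points per member in ALDH-low, 22.4 in ALDH-high and 20.03 in DTP, which is the spread to set beside any single percentile.

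The called width of members was compared with the width typical of each list. The median member peak was 963, 936.5 and 912 bp wide in ALDH-low erlotinib libraries, 964, 923 and 963.5 bp in ALDH-high erlotinib libraries and 811, 826 and 807 bp in DTP libraries. As a ratio to the median width of the whole list, these were 0.967, 0.936 and 0.894 in ALDH-low, 0.976, 0.911 and 0.964 in ALDH-high and 0.916, 0.982 and 0.958 in DTP. The median member peak was thus narrower than the median peak in each of the 9 lists. The mean ratio was 0.941 ± 0.0332 at 12 h (SD, n = 6) and 0.952 ± 0.0333 in DTP (SD, n = 3), with overlapping values (difference −0.0111, exact two-sided permutation p = 0.643, adjusted 0.643; smallest possible 0.0238). With 50% coverage of the region the difference was −0.0574 (exact permutation p = 0.0238). That setting selects members by called width, the quantity compared, so this p-value cannot decide whether widths differ. In bp the difference was 129 with wider peaks at 12 h (exact permutation p = 0.0238), as in the lists as a whole. ALDH-high and ALDH-low erlotinib libraries differed by 0.0178 (exact two-sided permutation p = 0.6, adjusted 0.643; smallest possible 0.1).

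Most members had a single peak per library, a description given without the same values for other regions. In 315 of the 320, each of the 9 libraries had exactly 1 peak in the region. In 314, every peak in the region, second peaks of a library included, shared a common stretch, with a median length of 579 bp. Peak midpoints within a region spread over a median of 204.5 bp. Merged member regions had a median width of 1199.5 bp (quartiles 1088 and 1370), against 1735 bp for regions held by all 18 libraries, 877 bp for those held by DTP alone and 1168 bp for those held at 12 h alone. Merged width grows with the number of libraries that contribute, and the 2289 regions held by any 9 libraries had a median of 1085 bp. Only 6 members (1.88%) reached 2 kb, beside 34.8% of the regions held by all 18.

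In 6 members no stretch was common to every peak in the region, second peaks of a library included. The widest member of all, chr1:156661070-156664838 (3769 bp), was among them. There, DTP library b had separate peaks of 1326 and 840 bp, and the other 8 libraries had a single peak each. The peak of DTP library c, at 156662247 to 156663458, lay within a peak of each other library. These single peaks were 1483 to 3728 bp wide at 12 h, and 2420 and 1212 bp in DTP libraries a and c. At chr3:126791939-126794517 (2579 bp) all 3 ALDH-high libraries had a single peak of 2339 to 2447 bp, ALDH-low library a had peaks of 1506 and 889 bp, and the DTP peaks were 1194 to 1291 bp wide. At chr7:142868297-142870267 the 3 ALDH-low libraries and ALDH-high library a covered most of the region, DTP libraries a and c had a peak at its start only, ALDH-high libraries b and c at its end only, and DTP library b 1 peak at each. Membership of that region joins peaks that did not overlap. The same was true of chr3:53188690-53190506, a region chosen after its values were seen. There each library had 1 peak, and that of DTP library a ended at 53189492, before that of DTP library c began at 53189552. The other widest members were chr12:124964383-124966607 (2225 bp), chr7:46244684-46246900 (2217 bp) and chr2:71163788-71165944 (2157 bp).

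Members were scattered over the genome, on all 23 chromosomes examined. The distance from a member to the next had a median of 2.64e+06 bp, and 16 (5.00%) lay within 100 kb of another, beside 4.36% of the regions held by all 18 libraries that had a member so close. Within 50 kb there were 5 pairs. The closest, at chr14:64122374-64123656 and chr14:64129872-64131727, was 6215 bp apart, with no other region between. The pair at chr15:78487687-78488762 and chr15:78501254-78503208 was 12491 bp apart, again with nothing called between. Between chr13:80163241-80164580 and chr13:80195477-80197044, 30896 bp apart, lay 2 regions, neither of which had a vehicle peak. The former had percentiles of 60.7 to 77.8 at 12 h and 34.8, 29.0 and 34.1 in DTP, which did not overlap. The latter had 48.7 to 78.8 at 12 h and 88.9, 77.4 and 77.6 in DTP, which did. On chromosome 3, chr3:193561174-193562573 and chr3:193603135-193604623 were 40561 bp apart with 5 regions between, all with a vehicle peak. Also on chromosome 3, chr3:188350666-188351715 and chr3:188397155-188398252 were 45439 bp apart with 1 region between.

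Counts per chromosome followed the number of regions there with some exceptions, given as a description. Chromosome 1 had the most members (35, 4.45 per 1000 regions) and chromosomes 18 and 21 the fewest (2 each). Per 1000 regions, members were most frequent on chromosome 14 (16 members, 6.70 per 1000) and chromosome 9 (18, 5.67 per 1000). They were least frequent on chromosome 18 (1.33 per 1000) and chromosome 12 (6 members, 1.78 per 1000). Counts this small leave the order of chromosomes uncertain, and it was not tested.

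By the rule no member overlapped a vehicle peak, and few lay at the edge of one. The nearest peak of any vehicle library lay a median of 9199 bp away, within 1000 bp for 18 members (5.63%) and within 10000 bp for 168 (52.5%). The corresponding share within 10000 bp was 35.2% for regions held by DTP alone and 62.2% for those held at 12 h alone. In 9 members a vehicle peak came within 500 bp. The closest after chr2:43695580-43697527 was chr19:16574392-16575491, at 36 bp, a region chosen after its values were seen. At the other end, the farthest member was 202126 bp from any vehicle peak. A region held by DTP alone lay within 100 kb of 55 members (17.2%), beside 24.7% of DTP-alone regions that had another of their kind so close and 15.8% of regions held by all 18. A region held at 12 h alone lay within 100 kb of 4 members (1.25%), beside 5.13% of 12 h-alone regions that had another of their kind so close and 2.41% of regions held by all 18. A region with the reverse pattern lay within 100 kb of 2 members and of 58 of the 14070 regions held by all 18.

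The lowest-ranking members each rested on at least 1 peak close to the score floor. At chrX:73081747-73082671 the values were 10.7, 29.0 and 0.0384 in ALDH-low, 8.54, 42.8 and 29.4 in ALDH-high and 33.6, 19.2 and 63.3 in DTP libraries. At chr9:110194575-110195692 they ranged from 0.558 to 58.6, both in ALDH-high libraries, and at chr10:79670945-79672182 from 0.670 to 63.6. None of these 3 remained at a score of at least 100.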

How the data were processed

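The 18 deposited peak lists, 1 per library, gave chromosome, start, end, peak name and a score. Per the submitters' processing notes, BWA, MACS 1.4.2 and the hg19 build were used; parameters, filters and the scale of the score were not given. Each deposited score ranked or filtered peaks inside its own list, and log2 scores served besides only to check whether libraries with the same letter deviate together. Peaks on chromosomes 1 to 22 and X (all but 3 to 7 per list) were merged where they shared at least 1 bp. The merging used all 18 libraries, also for tests in libraries that did not choose the regions. The members and lists were chosen with earlier results of these data known.

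Exact permutation tests (two-sided) compared values per library, with Benjamini-Hochberg adjustment (Python 3.11.15, numpy 2.4.6, pandas 2.3.3, scipy 1.17.1). Named regions were the 15 highest and 5 lowest by percentile in the weakest erlotinib library, the 5 widest, those within 50 kb of another member, and the 5 with the most positive and most negative difference between 12 h and DTP. Merging, region count and membership were the same with bedtools 2.31.1 (320 of 320 members), and the procedure was tested on simulated data. Alternatives were a score of at least 100, lists of equal size, 50% coverage, merging across gaps of up to 100 bp, all sequences, a replicate block and each library left out. Gene assignment, gene lists, motif shares and sequences need a genome of the files' build and were not run.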

Additional observations from a re-analysis of the deposited data

How the results depend on the processing

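The number of members moved by more than 1.5 times under a single alternative, lists of equal size (138 against 320). Leaving out 1 library gave 327 to 386 members, with the highest number without ALDH-low erlotinib library c and also without ALDH-high erlotinib library b. Each such set contained the 320. Leaving out a library only drops a condition of the rule, so the count could not fall and says nothing about stability. The share of 12 h regions called in DTP over PC9 ranged from 43.6 to 50.1 points when 1 library was left out, and the tests across fractions from 70.7 to 80.4 points in ALDH-high and from 65.9 to 77.8 points in ALDH-low cells. Those 3 differences kept their direction in all alternatives run, none of which could bring 3 against 3 libraries below an exact permutation p of 0.1. The width ratio between 12 h and DTP ranged from −0.0233 to 0.00642, turning to 0.00642 without DTP library b and 0.00172 without DTP library c. The difference reached −0.0574 with 50% coverage, a setting that itself selects members by called width. It turned to 129 bp when widths were not divided by the list's median. The cause was not tested beyond that construction. Between fractions the ratio differed by 0.00288 to 0.0440 when 1 library was left out. With a replicate block, exchanging only libraries with the same letter, the exact permutation p was 0.25 for each of the 3 shares (the smallest possible), 0.741 for width between 12 h and DTP (smallest possible 0.0741) and 0.75 between fractions (smallest possible 0.25). No test could pass 0.05 under the block, so it says nothing about stability. Libraries with the same letter did not deviate together: over the regions held by all 18, correlations of log2 score deviations lay between −0.0233 and 0.0227 over 45 pairs. The planned motif and base composition windows were not run. Depth is unknown, so peaks near the score floor of 70 limit which regions count as members.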
